A study of Danio rerio with 5 samples.

Results

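Hox genes encode homeodomain transcription factors that give cells their position along the head-to-tail axis. They lie in clusters, and genes at the 3′ end of a cluster act in the head and hindbrain while those at the 5′ end act in the trunk, tail and fins. The number in a symbol names the paralog group, from the most anterior to the most posterior, and the last letter marks the copy that arose in the genome duplication of teleost fish. After early patterning, hox transcripts remain in hindbrain and spinal cord neurons, gut, somite derivatives and fins, so whole larvae hold several sources of them.

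The genes described here were all those whose probe set carried a single symbol of the hoxa, hoxb, hoxc or hoxd series in the platform's annotation. They numbered 42 genes, measured by 59 probe sets, of 8793 named genes and 15502 probe sets in all. Their classes were anterior (groups 1 to 3, 9 genes), central (groups 4 to 8, 16 genes) and posterior (groups 9 to 13, 17 genes), and they came from 7 clusters. The RefSeq table listed 49 such genes, and hoxb1b, hoxa13a, hoxb13a, hoxc10a, hoxc12a, hoxc13b and hoxd12a were not analysed here.

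RNA came from larvae of the wild type AB strain at 7 days after fertilization, with 20 animals pooled for each array. From a common pool of embryos aged 24 h, 60 were kept unirradiated, 60 were given 12 Gy of protons and 60 were given 15 Gy (absorbed dose in gray), at 8 MeV/u and 7.5 Gy/min. There was 1 array for the control, 1 for 12 Gy and 3 for 15 Gy. The 15 Gy arrays are titled as biological replicates, but no label ties them to separate irradiations or clutches, so p-values measure only the spread between these pools. The number of arrays limits the precision of every comparison, and both comparisons with the control share its single array.

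All values below are log2 intensities of Affymetrix probe sets, or differences of them, where 1 unit is a doubling. Of the 42 genes, 37 had a mean level below the median of all named genes (6.49) and 19 lay at or below the lower quartile of 5.26. Only hoxb3a and hoxc8a lay above the upper quartile of 7.80. The signal of a probe set depends on its probes, so levels of different genes were not ranked against each other as amounts of RNA. Of 13 genes with several probe sets, 8 had probe sets whose differences at 15 Gy disagreed in sign (hoxa3a, hoxb2a, hoxb7a, hoxb8b, hoxc8a, hoxa10b, hoxb10a and hoxc11a), and 5 did not (hoxd3a, hoxd4a, hoxb8a, hoxa9a and hoxb9a). In bulk larvae, fewer cells of a type and less RNA per cell cannot be told apart.

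No hox gene passed the test in any comparison. With limma and Benjamini-Hochberg adjustment over all probe sets, 0 of 42 genes were called at 15 Gy against control at a threshold of 0.05, and the background was 0.0% of all probe sets. The smallest adjusted p of a hox gene was 0.167 in that comparison, 0.207 for 12 Gy against control (background 0.0%) and 0.52 for 15 Gy against 12 Gy (background 0.00645%, 1 probe set). At an unadjusted p under 0.05, 6 hox genes were lower at 15 Gy (background 10.4% of named genes) and 2 were higher (background 17.4%). The 6 were hoxc4a, hoxd4a, hoxa5a, hoxb5a, hoxc5a and hoxc12b, and the 2 were hoxb1a and hoxb9a. At 12 Gy the same unadjusted threshold took in 4 lower genes (hoxd4a, hoxa5a, hoxb5a and hoxc5a, background 7.94%) and 4 higher genes (hoxb9a, hoxa11b, hoxd11a and hoxc13a, background 10.4%). Between the doses it took in hoxc13a, lower at 15 Gy (background 3.51%), and 0 higher genes (background 5.35%). At least 1.25-fold below the control in all 4 irradiated arrays were 6 genes (hoxb3a, hoxc4a, hoxd4a, hoxa5a, hoxb5a and hoxc12b, background 13%), and hoxb1a and hoxb9a were that far above it (background 17.6%). What follows describes levels and sizes, and makes no claim that a single gene changed.

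The hox genes as a whole stood close to the control. Paralog group went only weakly with the difference from control (Spearman's rho over genes 0.21 to 0.45 by array). The median difference over the 42 genes was 0.02 at 15 Gy and 0.01 at 12 Gy, against 0.01 and 0.00 over all named genes. In all 3 arrays at 15 Gy, 16 hox genes were below the control (background 36.5%) and 17 were above it (background 41.0%). Genes of groups 3 to 5, which hold 12 of the 42 genes, made up 10 of the 16. Genes of groups 9 to 11, which hold 13 of the 42, made up 10 of the 17. These spans of groups were chosen after the values were seen, so no test was made of them. The median size of a difference, whatever its sign, was 0.19 for hox genes and 0.30 for all named genes. Most hox genes were dimmer than the median named gene, and sizes were not compared at matched levels.

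**Figure D1:**
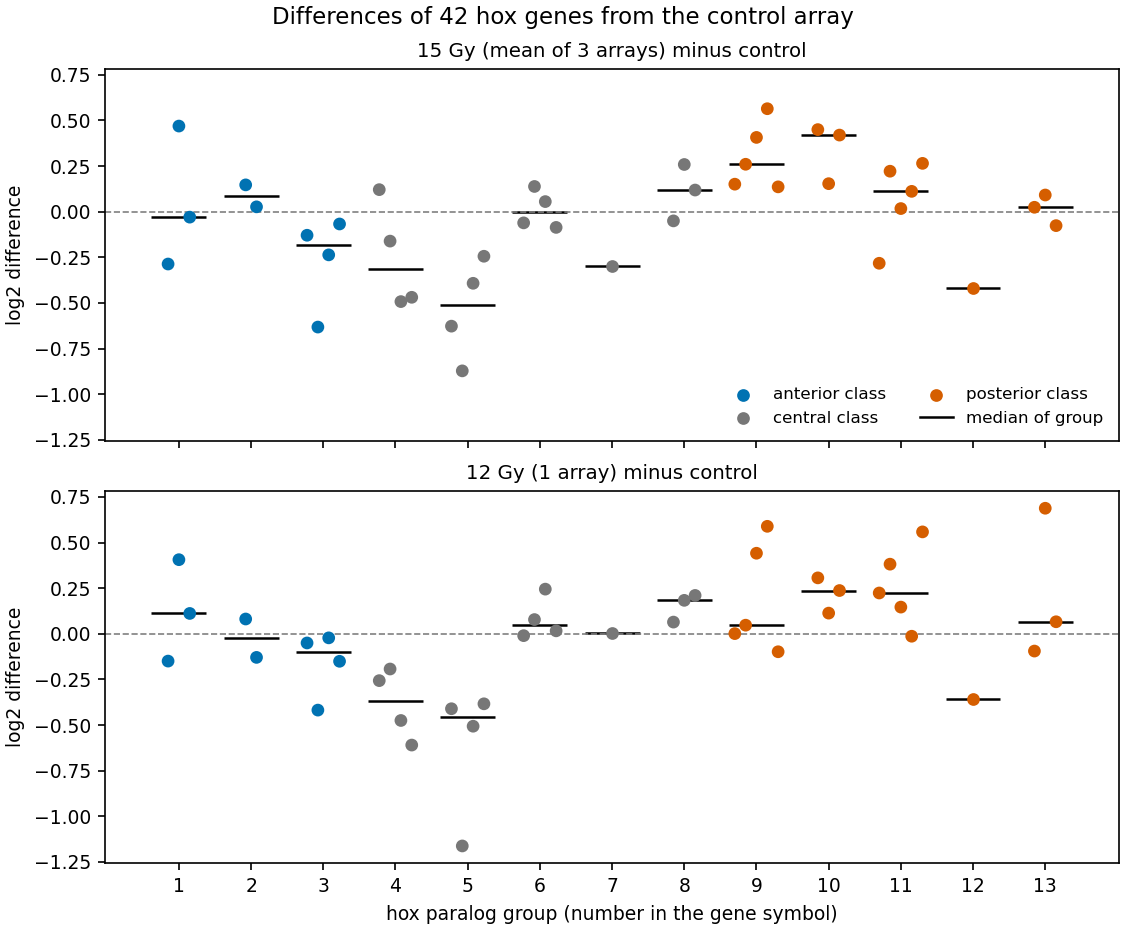
Log2 difference from the control array (vertical axis) of each hox gene by paralog group (horizontal axis), for the mean of the 3 arrays at 15 Gy and for the 12 Gy array. Points are genes coloured by class and bars are medians of a group; groups 4 and 5 lie below the control (medians −0.32 and −0.51 at 15 Gy), as does the 1 gene of group 12 (−0.42), and groups 9 and 10 lie above the control (0.26 and 0.42).

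In the anterior class, 4 of 9 genes lay below the control in all 4 irradiated arrays (background 32.7%) and 2 lay above it (background 35.8%). The class median was −0.07 at 15 Gy and −0.05 at 12 Gy. By array it was −0.07, 0.03 and −0.12 in replicates 1, 2 and 3 at 15 Gy, so the arrays did not share a sign. The median at 15 Gy turned to 0.00820 after cyclic loess normalization.

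The group 1 genes did not share a direction. The gene hoxb1a, which in zebrafish gives identity to the hindbrain segment that forms facial motor neurons, stood at 3.23 in the control, 3.63 at 12 Gy and 3.86, 3.63 and 3.59 at 15 Gy. All 4 irradiated arrays were above the control, by 0.47 at 15 Gy (SE 0.15, limma adjusted p = 0.188), at a level below the lower quartile of every array. In contrast, hoxa1a lay below the control in all 4 (−0.29 at 15 Gy), and hoxc1a lay on both sides of it (−0.03).

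Both group 2 genes stayed near the control. The gene hoxa2b, which selects the fate of second pharyngeal arch cartilage in zebrafish, stood at 5.98 in the control, 6.06 at 12 Gy and 6.26, 6.06 and 6.06 at 15 Gy. For hoxb2a, a hindbrain gene, the values were 6.30 in the control, 6.17 at 12 Gy and 6.30, 6.38 and 6.30 at 15 Gy. The 12 Gy array was the lowest for hoxb2a, and the arrays at 15 Gy lay 0.03 above the control on average. Its other probe set lay lower than the control at 15 Gy (−0.29), so the gene's probe sets disagreed in sign.

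Group 3 lay below the control, with hoxb3a farthest from it. This gene, a hindbrain and anterior spinal cord gene, stood at 8.93 in the control, 8.51 at 12 Gy and 8.24, 8.56 and 8.08 at 15 Gy. Every irradiated array was lower, and the 15 Gy mean of 8.30 ± 0.24 (SD, n = 3) was 1.55-fold below the control (limma adjusted p = 0.207). The differences of the others at 15 Gy were −0.24 for hoxc3a, −0.13 for hoxa3a and −0.07 for hoxd3a. Of these, hoxc3a and hoxd3a were below the control in all 4 irradiated arrays, whereas hoxa3a was above it in 15 Gy replicate 2. The other probe set of hoxd3a lay 0.06 above the control at 12 Gy and below it at 15 Gy (−0.18).

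Groups 4 and 5, which mark the hindbrain and spinal cord boundary, the vagal region and the level of the pectoral fin, lay mostly below the control. Of their 8 genes, 7 were below the control in all 4 irradiated arrays (background 32.7%) and hoxa4a was not. Median differences at 15 Gy were −0.32 for group 4 and −0.51 for group 5, and at 12 Gy they were −0.37 and −0.46.

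The gene hoxb5a, expressed in zebrafish in the posterior hindbrain, spinal cord and vagal neural crest, which forms the gut's nervous system, lay farthest from the control of all 42. It stood at 7.54 in the control, 6.38 at 12 Gy and 6.38, 6.94 and 6.70 at 15 Gy. The control was above every irradiated array, and the nearest to it, 15 Gy replicate 2, differed by −0.60. The 12 Gy value was at the low end of the 15 Gy values. The 15 Gy mean of 6.67 ± 0.28 (SD, n = 3) was 1.83-fold lower than the control (SE 0.27 on the log2 scale, limma adjusted p = 0.184), and the 12 Gy array was 2.24-fold lower (adjusted p = 0.265).

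Its duplicate hoxb5b lay lower too, by less. That gene stood at 6.36 in the control, 5.85 at 12 Gy and 5.86, 6.12 and 5.93 at 15 Gy. The 15 Gy mean differed from the control by −0.39 (SE 0.14, limma adjusted p = 0.204). In both copies 15 Gy replicate 2 was the irradiated array nearest to the control.

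The gene hoxa5a lay below the control with closely spaced values at 15 Gy. It stood at 5.82 in the control, 5.41 at 12 Gy and 5.22, 5.23 and 5.14 at 15 Gy. The groups did not overlap, and the 12 Gy array lay between the control and the 15 Gy arrays. The difference at 15 Gy was −0.63 (SE 0.08, limma adjusted p = 0.167), and that of hoxc5a was −0.24 with all 4 irradiated arrays lower.

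Among group 4 genes, hoxd4a stood at 6.62 in the control, 6.01 at 12 Gy and 6.16, 6.24 and 6.04 at 15 Gy. For hoxc4a the values were 6.12 in the control, 5.65 at 12 Gy and 5.63, 5.77 and 5.48 at 15 Gy. In both, the control was the highest array and did not overlap the irradiated arrays, and differences at 15 Gy were −0.47 (SE 0.11) for hoxd4a and −0.49 (SE 0.15) for hoxc4a. The other probe set of hoxd4a was lower at 15 Gy as well (−0.21). The remaining genes were hoxb4a (−0.16, all 4 irradiated arrays lower) and hoxa4a (0.12), in which 15 Gy replicate 2 equalled the control to 2 decimals and the 12 Gy array was lower by 0.26.

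**Figure D2:**
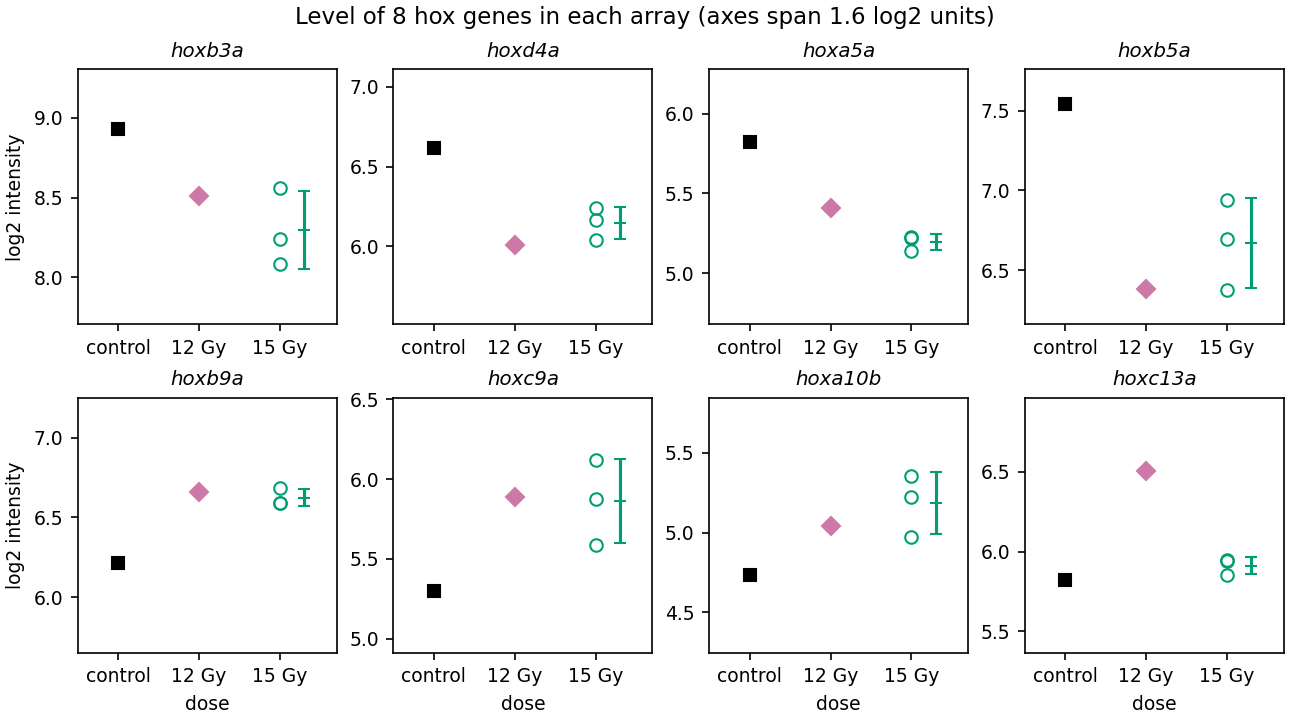
Log2 intensity (vertical axis) of 8 hox genes in the control array (square), the 12 Gy array (diamond) and the 3 arrays at 15 Gy (circles, with their mean ± SD beside them); each panel spans the same 1.6 log2 units. The control is the highest array in the upper row (groups 3 to 5) and the lowest array in the lower row (groups 9, 10 and 13). For hoxc13a the 12 Gy array (6.51) stands above the others. The 8 genes were picked with their values known, so the rows do not stand for their groups. In hoxa3a, hoxa4a, hoxd9a, hoxa13b and hoxd13a, of the same groups and not shown, the control was neither the highest nor the lowest array.

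Groups 6 to 8, which act in the trunk, lay around the control. Of their 8 genes, 4 were above it in all 4 irradiated arrays and 0 were below it in all 4, and their median was 0.00 at 15 Gy and 0.07 at 12 Gy. With groups 4 and 5, the central class had 7 of 16 genes below (background 32.7%) and 4 above the control in all 4 irradiated arrays (background 35.8%), and a median of −0.12 at 15 Gy. That median was 0.055 when the class was drawn as groups 5 to 9. Central medians were −0.14, −0.16 and −0.19 in replicates 1, 2 and 3 at 15 Gy, and −0.10 at 12 Gy.

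The gene hoxc8a, which marks thoracic levels of the trunk in mouse, stood at 8.51 in the control, 8.72 at 12 Gy and 8.70, 8.56 and 8.62 at 15 Gy. Every irradiated array was above the control, by 0.12 on average at 15 Gy (SE 0.09), whereas its dimmer probe sets lay at −0.33 and −0.01. For hoxb8a the values were 7.40 in the control, 7.46 at 12 Gy and 7.24, 7.40 and 7.40 at 15 Gy. The control lay inside the range of the irradiated arrays, and the dimmer probe sets of hoxb8a differed by −0.01 and −0.30 at 15 Gy. The group 7 gene hoxb7a differed by −0.30 at 15 Gy in its brighter probe set and by 0.29 in its dimmer one, so no direction can be given for it.

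The posterior class lay above the control more often than below it. Of its 17 genes, 11 were above the control in all 4 irradiated arrays (background 35.8%) and 1 was below it in all 4 (background 32.7%). The class median was 0.15 at 15 Gy and 0.15 at 12 Gy. By array it was 0.21, 0.03 and 0.14 in 15 Gy replicates 1, 2 and 3, and it remained above 0 under each scaling tried. Without replicate 1 the 15 Gy median was 0.073. The count of 11 became 7 when each array's median was subtracted, a scaling under which 31.6% of all named genes were higher in all 4 arrays. It became 9 with quantile normalization again and with the mean of a gene's probe sets. Without the dimmest 30% of probe sets it was also 9, but fewer posterior genes were left. In that setting 40.5% of the remaining named genes were higher in all 4 arrays. Among the 11 were hoxa9a, only 0.001 above the control at 12 Gy, and hoxc11a, 0.02 above it at 15 Gy.

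Group 9 genes act at trunk levels, and in mouse Hoxc9 sets the identity of thoracic motor neurons. The zebrafish hoxc9a stood at 5.30 in the control, 5.89 at 12 Gy and 6.12, 5.59 and 5.88 at 15 Gy. It had the largest positive difference of the 42 genes at 15 Gy, 0.56 (SE 0.25, 1.48-fold, limma adjusted p = 0.244), and the control lay below every irradiated array.

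For hoxb9a the values were 6.22 in the control, 6.66 at 12 Gy and 6.68, 6.59 and 6.59 at 15 Gy. The irradiated arrays lay close together and all above the control. The difference at 15 Gy was 0.41 (SE 0.08, limma adjusted p = 0.167), and the other probe set of the gene gave 0.56. The remaining group 9 genes differed by 0.26 (hoxa9b), 0.15 (hoxa9a) and 0.14 (hoxd9a), the last with values on both sides of the control.

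By their brightest probe sets, all 3 group 10 genes lay above the control in all 4 irradiated arrays (background 35.8%). The gene hoxd10a stood at 5.42 in the control, 5.66 at 12 Gy and 5.90, 5.66 and 5.97 at 15 Gy. For hoxa10b the values were 4.74 in the control, 5.04 at 12 Gy and 5.23, 4.97 and 5.36 at 15 Gy. In both genes the 15 Gy replicates 1 and 3 were the highest arrays, and differences at 15 Gy were 0.42 (SE 0.16) for hoxd10a and 0.45 (SE 0.19) for hoxa10b. The dimmer probe set of hoxa10b, at 3.34 in the control, lay below it in all 4 irradiated arrays (−0.05 at 15 Gy). The brightest probe set of hoxb10a differed by 0.15 at 15 Gy. Another probe set of hoxb10a stood at 3.89 in the control, 4.66 at 12 Gy and 4.93, 4.65 and 4.82 at 15 Gy (0.91 higher). The remaining one differed by −0.01, so the size and sign of the hoxb10a difference depended on the probe set.

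Group 11 genes, which in mouse pattern the middle of the limb and the lumbar and sacral spine, were less uniform. The gene hoxd11a stood at 5.11 in the control, 5.67 at 12 Gy and 5.29, 5.38 and 5.45 at 15 Gy. Every irradiated array was above the control and the 12 Gy array was the highest. For hoxc11a the values were 6.07 in the control, 6.22 at 12 Gy and 6.09 in each of the 3 arrays at 15 Gy, which were identical to 8 decimals. Such ties, which 16 of the 42 genes had in some arrays, lower the estimated spread, and the difference of hoxc11a was 0.02 at 15 Gy.

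Groups 12 and 13, active in the tail and the distal fin, did not follow groups 9 to 11. The group 12 gene hoxc12b was the posterior gene below the control in all 4 irradiated arrays, with −0.42 at 15 Gy (SE 0.11, limma adjusted p = 0.171) and −0.36 at 12 Gy. The genes hoxa13b (0.02) and hoxd13a (−0.08), whose relatives pattern the outer part of fins and limbs, lay near the control at 15 Gy. The gene hoxc13a stood at 5.82 in the control, 6.51 at 12 Gy and 5.95, 5.85 and 5.94 at 15 Gy. The 12 Gy array was 1.61-fold above the control (limma adjusted p = 0.207), and the arrays at 15 Gy stayed within 0.13 of it.

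**Figure D3:**
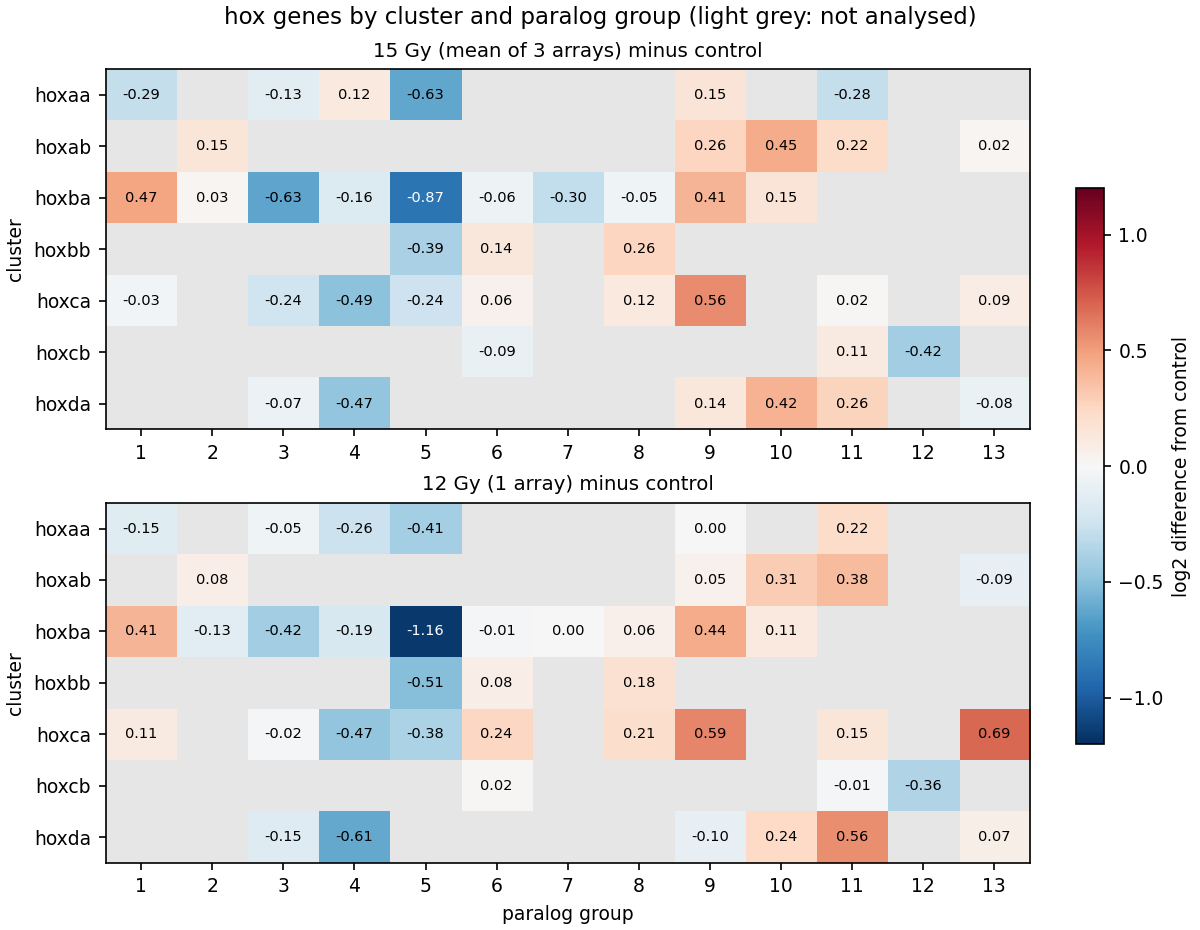
Log2 difference of each hox gene from the control array, for 15 Gy and 12 Gy, by cluster (rows) and paralog group (columns). Rows are named by the letter of the series and of the duplicate. Blue is lower, red is higher and light grey is a cell with no analysed gene. The light grey cells include those for which RefSeq listed no gene. At 15 Gy, the cells of clusters hoxba, hoxca and hoxda are all blue at groups 3 to 5 (−0.07 to −0.87). They are all on the red side at groups 9 to 11 (0.02 to 0.56). Cluster hoxaa differs, with hoxa4a on the red side (0.12) and hoxa11a blue (−0.28). These spans of groups were chosen after the values were seen.

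All 4 clusters with genes in both spans had a lower median at 15 Gy in groups 3 to 5 than in groups 9 to 11. In hoxba, hoxca and hoxda those medians lay on opposite sides of the control, and in hoxaa both lay below it. The spans were chosen after the values were seen, and the clusters only divide the same genes again, so they are not repeated support. Over all named genes, 32.7% were lower and 35.8% higher in all 4 irradiated arrays. In hoxba, the cluster with most genes (10), groups 3 to 5 had a median of −0.63 at 15 Gy (3 genes, all lower in all 4 irradiated arrays) and groups 9 to 11 a median of 0.28 (2 genes, both higher in all 4). In hoxca the medians were −0.24 (3 genes, all lower in all 4) and 0.29 (2 genes, both higher in all 4). The higher hoxca genes include hoxc11a (0.02), whose other probe sets differed by 0.17 and −0.14 at 15 Gy. Those of hoxba include hoxb10a (0.15), whose other probe sets differed by 0.91 and −0.01. In hoxda the medians were −0.27 (2 genes, both lower in all 4) and 0.26 (3 genes, of which 2 were higher in all 4). The lower hoxda genes include hoxd3a, whose other probe set lay 0.06 above the control at 12 Gy.

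The clusters hoxab, hoxbb and hoxcb held fewer of these groups, whereas hoxaa held as many as hoxba. In hoxab the 3 genes of groups 9 to 11 were all higher in all 4 irradiated arrays by their brightest probe sets (median 0.26, background 35.8%). RefSeq listed no hoxab gene of groups 3 to 5. In hoxaa the medians were −0.13 for groups 3 to 5 (3 genes) and −0.07 for groups 9 to 11 (2 genes), both below the control. At 15 Gy, hoxa4a of that cluster lay above the control (0.12) and hoxa11a below it (−0.28). The clusters hoxbb and hoxcb had 3 genes each, with medians of 0.14 and −0.09.

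Across the 42 genes, Spearman's rho between paralog group and difference from control was 0.45 in the 12 Gy array, and 0.30, 0.21 and 0.35 in replicates 1, 2 and 3 at 15 Gy. These correlations are over genes, which are not independent replicates, and all 4 share the control array. They are a description of a weak order that was lowest in 15 Gy replicate 2.

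The posterior median exceeded the anterior median by 0.22 at 15 Gy and by 0.20 at 12 Gy. By array the excess was 0.27, 0.00 and 0.25 in 15 Gy replicates 1, 2 and 3 (SD 0.15), so the class medians coincided in replicate 2. Its range was 0.14 to 0.28 when each 15 Gy array was left out in turn, the largest without replicate 2.

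**Figure D4:**
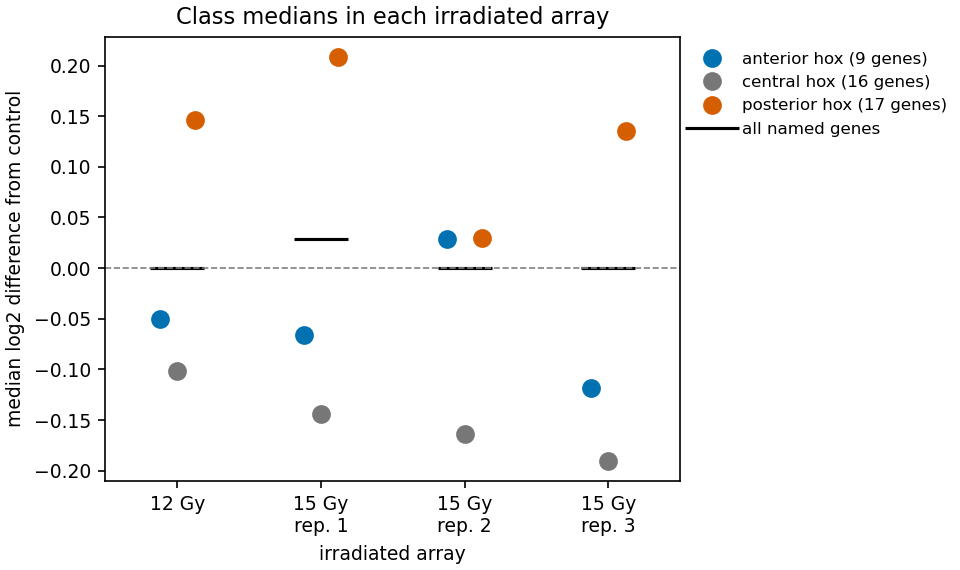
Median log2 difference from the control array (vertical axis) of the 3 hox classes in each irradiated array (horizontal axis), with the median of all named genes as a bar. The posterior median is the highest of the 3 classes in every array, and the anterior and posterior medians meet in 15 Gy replicate 2 (both 0.03).

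Duplicated genes were measured on both sides in 7 pairs, and they allow a look at copies that share a paralog group but not a cluster. At 15 Gy, 3 pairs had mean differences of the same sign and 4 had opposite signs. The pair farthest from the control, hoxb5a and hoxb5b, has been given above.

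In group 6, hoxb6a stood at 5.77 in the control, 5.76 at 12 Gy and 6.00, 5.47 and 5.65 at 15 Gy. Its copy hoxb6b stood at 5.09 in the control, 5.17 at 12 Gy and 5.37, 5.17 and 5.15 at 15 Gy. The first lay on both sides of the control, the second above it by 0.14 on average. In mouse, Hoxc6 marks motor neurons of the forelimb level, and the zebrafish hoxc6a stood at 5.97 in the control, 6.21 at 12 Gy and 6.04, 5.97 and 6.05 at 15 Gy. Its copy hoxc6b stood at 4.56 in the control, 4.58 at 12 Gy and 4.51, 4.52 and 4.40 at 15 Gy. Differences at 15 Gy were 0.06 and −0.09, each within its standard error of 0.08 and 0.09.

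In group 8, hoxb8b stood at 4.99 in the control, 5.18 at 12 Gy and 5.53, 5.06 and 5.16 at 15 Gy, above the control throughout, whereas its copy hoxb8a lay on both sides of it. This contrast depended on the probe set. The other probe set of hoxb8b lay on both sides of the control (−0.01 at 15 Gy). The dimmest probe set of hoxb8a lay below the control in all 4 irradiated arrays (−0.30 at 15 Gy). The group 9 gene hoxa9a stood at 3.89 in the control, 3.89 at 12 Gy and 4.24, 3.93 and 3.95 at 15 Gy. Its copy hoxa9b stood at 5.06 in the control, 5.11 at 12 Gy and 5.56, 5.09 and 5.32 at 15 Gy. In both copies 15 Gy replicate 1 was the highest array.

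In group 11, hoxa11b stood at 5.25 in the control, 5.63 at 12 Gy and 5.46, 5.44 and 5.53 at 15 Gy, above the control throughout. Its copy hoxa11a stood at 5.05 in the control, 5.27 at 12 Gy and 4.83, 4.94 and 4.53 at 15 Gy. The first copy was higher than the control in every irradiated array, and the second was lower in every array at 15 Gy (−0.28, SE 0.21) but higher at 12 Gy. The gene hoxc11b stood at 4.92 in the control, 4.91 at 12 Gy and 5.33, 4.91 and 4.85 at 15 Gy, so its mean difference of 0.11 came from replicate 1.

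The dose comparison set the 12 Gy array against the 3 arrays at 15 Gy. The median hox difference, 15 Gy minus 12 Gy, was −0.02, against 0.02 over all named genes. In 18 of the 42 genes the 12 Gy value lay inside the range of the 15 Gy arrays. It lay below that range in 9 (background 31.3% of named genes) and above it in 15 (background 21.1%). The group 13 gene hoxc13a had the largest gap (15 Gy minus 12 Gy −0.60, limma adjusted p = 0.52), followed by hoxa11a (−0.51). At 12 Gy the largest negative differences from control were those of hoxb5a (−1.16), hoxd4a (−0.61) and hoxb5b (−0.51). The largest positive ones were those of hoxc13a (0.69), hoxc9a (0.59) and hoxd11a (0.56). At least 1.25-fold below the control at 12 Gy were 8 hox genes (background 20.8%), and 6 were at least 1.25-fold above it (background 23.1%).

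Genes that act with hox proteins or upstream of them were taken from lists fixed with earlier results of these data known, and 0 of their members passed the test at 15 Gy. Proteins of the TALE class, Pbx, Meis and Pknox, bind DNA together with Hox proteins. Of 14 such genes 12 were measured, with a median difference of −0.78 at 15 Gy. Below the control in all 4 irradiated arrays were 8 of them (background 32.7%) and above it were 2 (background 35.8%). The largest negative differences were those of pbx3b (−1.63, SE 0.81), meis2a (−1.42, SE 0.59) and pknox2 (−1.32, SE 0.44), and the positive ones were those of meis1a and pbx2 (0.57, SE 0.11). The gene meis1a stood at 5.92 in the control, 6.81 at 12 Gy and 7.16, 6.81 and 6.81 at 15 Gy, while its copy meis1b lay below the control throughout (−0.55).

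Upstream patterning factors set the borders of hox expression, and their list also held evx1, evx2 and eve1, which border hox clusters. Of 16 listed, 10 were measured, and their median was −0.20 at 15 Gy, with 8 below (background 32.7%) and 1 above the control in all 4 irradiated arrays (background 35.8%). The hindbrain gene egr2b stood at 6.39 in the control, 5.19 at 12 Gy and 4.73, 5.41 and 5.19 at 15 Gy. The gene gbx2, of the anterior hindbrain, lay 1.33 below the control and gbx1 1.09 below it. In contrast, egr2a was higher than the control in all 4 irradiated arrays, by 0.46 on average at 15 Gy. The tail factors cdx4 (−0.15) and cdx1a (−0.29), which activate trunk and posterior hox genes, lay lower than the control in all 4.

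Retinoic acid, made by Aldh1a2 and broken down by Cyp26 enzymes, turns on 3′ hox genes in the hindbrain and anterior trunk. Of 23 listed genes 15 were measured, with a median of −0.01 at 15 Gy, and 7 lay above the control in all 4 irradiated arrays (background 35.8%) while 3 lay below (background 32.7%). The enzyme gene aldh1a2 stood at 7.32 in the control, 8.08 at 12 Gy and 8.53, 8.12 and 8.43 at 15 Gy. The binding protein gene crabp2b had the largest difference, 1.36 (SE 0.11), ahead of cyp26a1 (1.11, SE 0.74) and aldh1a2 (1.03, SE 0.20). Among the Cyp26 genes of breakdown, cyp26c1 lay below the control in all 4 irradiated arrays (−0.26), so this family did not share a direction.

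Polycomb proteins keep hox genes silent outside their domains, and Trithorax proteins keep them active. Of 32 listed genes 20 were measured, with a median of −0.24 at 15 Gy, 12 below (background 32.7%) and 3 above the control in all 4 irradiated arrays (background 35.8%). Those farthest from it were phc2b (−0.61, SE 0.16), cbx8a (−0.56, SE 0.09) and kmt2ba (−0.52, SE 0.14) on the lower side and phc2a (0.62, SE 0.23) on the higher.

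Genes next to the clusters served as a comparison by position. Among the 5 nearest protein-coding genes on each side of each cluster in RefSeq order, 36 were measured, and their median difference at 15 Gy was −0.05. Of these 13 lay below (background 32.7%) and 14 above the control in all 4 irradiated arrays (background 35.8%), so no direction was shared. The homeobox genes that border clusters, evx1 (−0.18), eve1 (−0.22) and evx2 (−0.11), lay lower in all 4 arrays. They were counted among the patterning factors above as well. The gene lnpa (0.70), beyond evx2 in the order of the table, lay higher.

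Markers of other tissues and cell types were set beside the hox genes, because larvae hold them all. All 13 measured neuron markers of 24 listed lay below the control in all 4 irradiated arrays (background 32.7%), with a median of −1.66 at 15 Gy and −1.31 at 12 Gy. Their summed linear intensity was 27511 in the control, 11118 at 12 Gy, and 4186, 13242 and 9526 in replicates 1, 2 and 3 at 15 Gy, and the dimmest of them, isl2a, stood at 7.02 in the control. Of 14 measured genes on the anterior brain list, 11 lay below the control in all 4 and 1 lay above it (median −0.95). Lower in all 4 as well were 5 of 6 neural progenitor genes (median −0.55). Fin fold and skeleton genes lay above it in 6 of 10 (background 35.8%, median 0.46), among them msx1b (1.22) and and1 (1.07), and below it in 2. Muscle and somite genes had a median of 0.14 (5 genes), with the muscle actin gene actc1b between 13.82 and 14.40 in all arrays.

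The hox sums spanned a narrower range, but from dimmer genes (median level 5.40 for hox genes and 9.44 for neuron markers). The summed linear intensity was 821 in the control, 692 at 12 Gy and 637, 712 and 588 at 15 Gy for the anterior class, and 1393, 1257, 1268, 1252 and 1225 in the same order for the central class. For the posterior class it was 624 in the control, 754 at 12 Gy and 750, 672 and 707 at 15 Gy. The anterior sum was mostly hoxb3a. Leaving out the brightest gene of each class, a choice made after seeing the data, gave anterior sums of 334 in the control, 327 at 12 Gy and 335, 334 and 316 at 15 Gy, so the control was then no longer the highest. Without hoxc8a the central sum was 1029 in the control and 831 to 875 in the irradiated arrays. As hoxc8a lay above the control in each of these, leaving it out could not narrow that gap. Without hoxb9a the posterior sum was still lowest in the control (549, against 576 to 653).

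RNA integrity can be read from the actin control probes, as signal at the 5′ end over that at the 3′ end, and this ratio was also lowest in the control. It was 0.0171 there, 0.0354 at 12 Gy, and 0.129, 0.035 and 0.108 in replicates 1, 2 and 3 at 15 Gy. The same ratio from the gapdh control probes varied less between arrays. It was 0.174 in the control, 0.177 at 12 Gy, and 0.242, 0.189 and 0.228 in replicates 1, 2 and 3 at 15 Gy. By both ratios, 15 Gy replicate 2 and the 12 Gy array were the nearest to the control. The posterior hox median was lowest in replicate 2 (0.03). In the 12 Gy array it was 0.146, above that of 15 Gy replicate 3 (0.135). The part of tissue makeup or RNA quality in the hox differences was not tested.

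**Figure D5:**
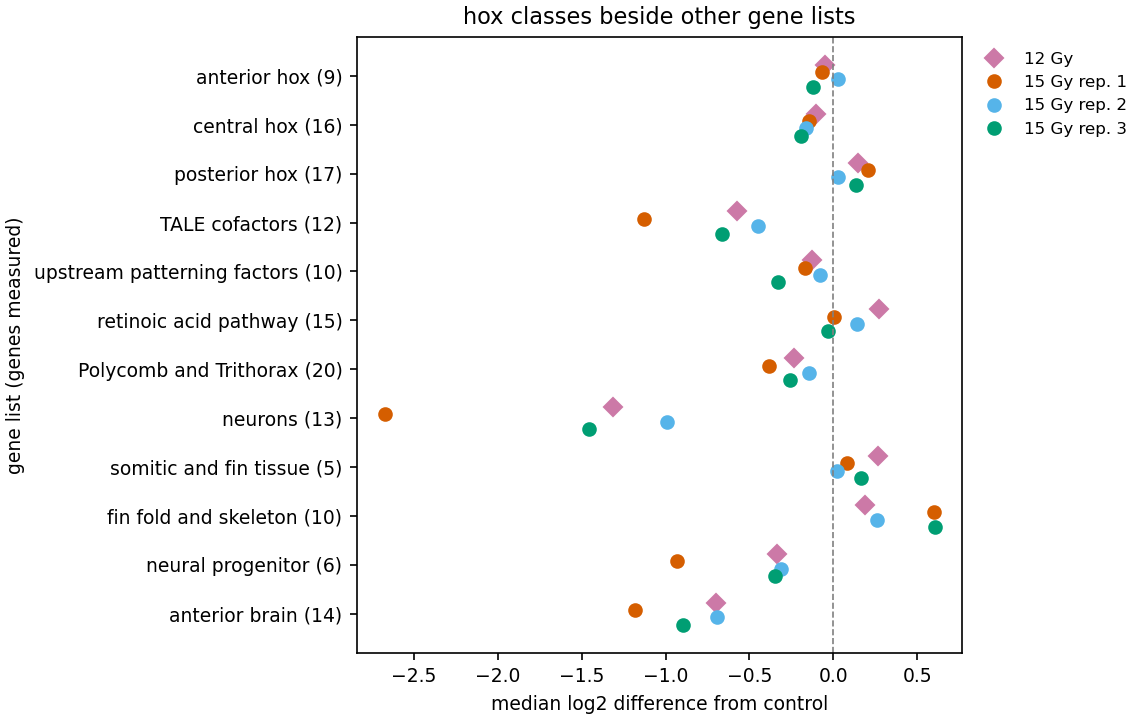
Median log2 difference from the control array (horizontal axis) in each irradiated array for the 3 hox classes and the other gene lists (rows, with the number of genes measured). Neuron markers spread from −0.99 to −2.67, outside the range of the hox classes, which all lie between −0.19 and 0.21.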

How the data were processed

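Expression was measured in 5 pools of zebrafish larvae. The deposited values are linear intensities, 1 per probe set and array, made by the authors with RMA per the submitters' processing notes. No version of it was given. The return to a linear scale was read from the values. Log2 was taken with no constant, and 115 control probe sets were left out. Where a gene had several probe sets, the one with the highest mean stood for it, and all 59 hox identifiers matched RefSeq (assembly GRCz12tu, for names and gene order only). The strand read by probe sets named A1 or S1 is not given in the sources used here, so both were kept.

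A limma 3.58.1 model (R 4.3.3) with 1 mean per group was fitted to 15502 probe sets on all 5 arrays, two-sided, with Benjamini-Hochberg adjustment. Its 2 residual degrees of freedom came from the 15 Gy arrays (prior 1.20), so the single arrays were assumed to vary alike. The limma step was tested on simulated data. The planted changes were larger than any hox difference, so that test does not cover changes of hox size. SE is the moderated standard error. Values identical to 8 decimals in some arrays occurred in 16 hox genes. Figures used matplotlib 3.10.9.

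Members and lists were chosen with earlier results of these data known. By the naming rule, 28 members have their values in every array: the 3 brightest of each class, the largest differences each way (4 at 15 Gy with all arrays on one side, 3 at 12 Gy) and the duplicate pairs. The threshold of 1.25-fold and the spans of groups were set after the values were seen.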

Additional observations from a re-analysis of the deposited data

Results flagged for a closer look

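In 4 genes the 12 Gy array lay above the control while every array at 15 Gy lay below it. The share of all named genes with this pattern was not counted, so nothing is read from the number of genes. The difference itself, 15 Gy minus 12 Gy, was tested with limma and passed in none of them. It was −0.51 for hoxa11a (SE 0.21, adjusted p = 0.601), whose 12 Gy array lay 0.22 above the control and whose 15 Gy arrays lay between −0.52 and −0.10. It was −0.30 for hoxb7a (adjusted p = 0.71), −0.14 for hoxd13a (adjusted p = 0.829) and −0.10 for hoxc6b (adjusted p = 0.817), in which the 12 Gy array was within 0.07 of the control. The dimmer probe set of hoxb7a lay 0.29 above the control at 15 Gy, so no direction can be given for that gene.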

How the results depend on the processing

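With 1 control array, every difference rests on a single pool, and 37 of the 42 hox genes lay below the median level of named genes. Their signal over background was not analysed here. Of 158 recomputed values for lists and counts, 135 stayed within the spread of the 15 Gy arrays or within 1.5 times the count. The 135 include the counts of hox genes called, 0 in every setting, which say nothing about the medians. No hox gene passed under any alternative, and the 81 single-gene values that took the other sign all had a main difference under 1.25-fold. After cyclic loess, medians at 15 Gy were 0.00820 (anterior), −0.0905 (central) and 0.25 (posterior), and the hox median at 12 Gy was 0.055. With array medians subtracted, 10 hox genes instead of 17 were higher in each 15 Gy array and 7 posterior genes instead of 11 in all irradiated arrays. In that setting the hox median was −0.0318 at 15 Gy and −0.0315 at 12 Gy and the central median −0.18. Without the dimmest 30% of probe sets (30 hox genes left), 10 genes instead of 16 were lower in each 15 Gy array, the central median was −0.061, the posterior 0.26 and the hox median at 12 Gy 0.056, with fewer genes by construction. The central median was −0.068 with a constant of 16 added, −0.074 with S probe sets only, and 0.055 with classes of groups 1 to 4, 5 to 9 and 10 to 13, which move group 4 out of the class and group 9 into it. With the mean of a gene's probe sets the hox median was −0.017 at 15 Gy and 0.0059 for 15 Gy against 12 Gy, a median that was 0.029 with S probe sets. Beyond these constructions the cause was not tested.

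Leaving out 15 Gy replicates 1, 2 and 3 in turn gave central medians of −0.19 to −0.10 and medians of 15 Gy against 12 Gy of −0.063 to 0.038. The counts chosen after seeing the data, of groups 3 to 5 lower and groups 9 to 11 higher in all irradiated arrays, were 8 to 11 and 7 to 10 over all alternatives, also without the 12 Gy array (10 and 10). S probe sets only and the alternatives to these counts were chosen after seeing the data. No paired analysis was possible because the groups share only 1 replicate number.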
